A study of Mus musculus with 24 samples.

Results

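The mitochondrial respiratory chain and ATP synthase were followed in the livers of mice fed high-fat diets that differed in their fatty acids. The members are all genes whose symbol in the probe set annotation begins with Ndufa, Ndufb, Ndufc, Ndufs, Ndufv, Uqcr or Atp5, or with Cox followed by 4 to 8 and a subunit letter, together with Sdha to Sdhd and Cyc1, with the Ndufaf assembly factors left out. By this rule 82 of the 18820 genes with a probe set of their own were found, of which 36 belong to complex I by name, 4 to complex II, 8 to complex III, 17 to complex IV and 17 to complex V. Cox7c, Ndufa13, Uqcrc2 and Ndufs5-ps share their probe sets with other genes and were left out. The animals were male mice of 4 to 6 months, C57BL/6J by their labels and of C57Bl/6 background by the study's methods, kept for 7 weeks on food that drew 45% of its energy from fat, namely partially hydrogenated soy oil (Trans), canola and palm olein oil (Cis) or cocoa butter (Saturated). There were 8 livers per diet, each on its own array, and no group on a low-fat diet. All 3 groups therefore share the high fat content, and each comparison is between types of fat. The labels give no cage, litter or batch.

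The respiratory chain sits in the inner mitochondrial membrane. Complex I (NADH dehydrogenase) and complex II (succinate dehydrogenase) hand electrons to coenzyme Q, complex III (cytochrome bc1) passes them to cytochrome c, and complex IV (cytochrome c oxidase) passes them on to oxygen. Complexes I, III and IV pump protons, and complex V (ATP synthase) uses the gradient to make ATP. Subunits are encoded partly by mitochondrial DNA, but the members here are all nuclear genes. Of 26 listed symbols of mitochondrially encoded genes, 0 had a probe set of their own in the annotation, so these subunits were not followed. Hepatocytes are rich in mitochondria and use the chain to reoxidize the NADH and FADH2 of fatty acid oxidation.

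The medians of the arrays lay between 2.94 and 3.06 on the log2 scale. The RMA normalization equalizes the distributions, so these medians do not show whether the arrays were alike before it. Each array was correlated with the 23 others, and the median of these correlations was lowest in Trans replicate 4 (0.975), then in Cis replicates 7 and 8 (both 0.979), and at most 0.986. The 8 measured hepatocyte markers all had a mean signal over 20 (2 to the power of the mean log2 value), and their mean log2 value lay between 12.08 and 12.36 in all livers. In tissue RNA, fewer cells of a type and less RNA per cell cannot be told apart. Of the 82 members, 74 had a mean signal over 20, and the other 8 were Ndufa4l2 and 7 isoforms of complex IV subunits that are known from other tissues.

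Transcription of many nuclear respiratory genes is known to depend on NRF1, the ETS factor GABP, YY1 and the estrogen-related receptors (ERR). Promoter windows of 300 bases, from 250 before to 50 after the gene start, were found for 67 of the 82 members in the RefSeq table (GRCm38.p6), as 72 windows. They were searched on both strands for TGCGCANGC (NRF1), CCGGAAGT (ETS factors), AAGATGGC (YY1), TCAAGGTCA (ERR) and GGGCGG (Sp1), and no match overlapped a match of another motif in the windows of members. The NRF1 motif was in 18.1% of the windows of members, 4.16% of all 32851 windows and 8.91% of the 8611 windows of genes with a mean signal over 20. The YY1 motif was in 13.9% of the windows of members, 2.75% of all windows and 4.84% of those of genes over the signal limit. The ERR motif was in 2.78% of the windows of members, which is only 2 of 72, against 0.423% (139) and 0.232% (20) in the same sets. The ETS motif was in 6.94%, 3.89% and 8.55% and the Sp1 motif in 40.3%, 35.7% and 62.8% of these windows. These shares are a description of letters and not of binding. Windows are shown for the members with the smallest p in complexes II and I, Sdhd and Ndufb3, and for Sdha and Ndufa9 of the same complexes, with every match in capitals. They lie at chr9:50603800-50604099 (minus strand), chr13:74350191-74350490 (minus), chr1:58586147-58586446 (plus) and chr6:126849095-126849394 (minus), in the order Sdhd, Sdha, Ndufb3, Ndufa9.
Sdhd: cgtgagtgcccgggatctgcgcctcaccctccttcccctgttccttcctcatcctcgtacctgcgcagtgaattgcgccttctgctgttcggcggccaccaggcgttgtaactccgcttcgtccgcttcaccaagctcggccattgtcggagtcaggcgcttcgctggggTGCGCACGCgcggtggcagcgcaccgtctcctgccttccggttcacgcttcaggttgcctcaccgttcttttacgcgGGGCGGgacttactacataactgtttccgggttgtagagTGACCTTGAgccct
Sdha: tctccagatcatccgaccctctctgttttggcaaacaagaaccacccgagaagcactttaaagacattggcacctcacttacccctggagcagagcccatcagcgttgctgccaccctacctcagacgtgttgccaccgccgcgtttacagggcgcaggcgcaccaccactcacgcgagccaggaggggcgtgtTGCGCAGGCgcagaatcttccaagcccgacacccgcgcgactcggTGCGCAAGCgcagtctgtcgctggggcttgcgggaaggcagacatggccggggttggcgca
Ndufb3: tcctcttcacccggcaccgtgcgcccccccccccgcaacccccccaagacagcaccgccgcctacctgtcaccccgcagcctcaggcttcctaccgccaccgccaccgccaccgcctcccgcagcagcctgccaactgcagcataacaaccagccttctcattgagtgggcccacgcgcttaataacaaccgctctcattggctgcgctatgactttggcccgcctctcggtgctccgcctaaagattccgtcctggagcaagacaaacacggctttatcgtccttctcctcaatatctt
Ndufa9: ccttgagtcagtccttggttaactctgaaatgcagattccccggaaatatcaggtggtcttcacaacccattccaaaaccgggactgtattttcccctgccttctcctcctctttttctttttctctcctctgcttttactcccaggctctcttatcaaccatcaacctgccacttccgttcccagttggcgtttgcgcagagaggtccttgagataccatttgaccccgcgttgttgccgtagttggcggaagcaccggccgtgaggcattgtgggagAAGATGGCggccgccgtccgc
The Sdhd window held an NRF1 match, an Sp1 match and an ERR match, the Sdha window 2 NRF1 matches and the Ndufa9 window a YY1 match. The Ndufb3 window held none of these letters.

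The transcripts of the 5 complexes were at nearly the same level on the 3 diets. In the limma fit with Benjamini-Hochberg adjustment over all 35556 probe sets, 0 of the 82 members were called between Trans and Saturated (0.00844% of all probe sets were called), 0 between Trans and Cis (0.00281%) and 0 between Cis and Saturated (0%). The smallest adjusted p of a member was 0.336, 0.598 and 0.651 in these comparisons. The 95% interval of the difference lay within 1.5-fold in either direction for 82 of 82 members in each comparison, against 95.5%, 96.2% and 95.9% of all genes. It lay within 1.2-fold for 68 of 82 members in each comparison, which is 82.9%, against 46.3%, 46.8% and 46.8% of all genes. The median spread within diets (SD of the log2 value) was 0.11 for the 74 members over the signal limit and 0.17 for all 8298 such genes.

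At an unadjusted p under 0.05, between Trans and Saturated 1 member was higher in Trans (3.79% of all probe sets) and 1 was lower (3.54%). Between Trans and Cis, 4 members were higher in Trans (3.05%) and 2 were lower (3.12%). Between Cis and Saturated, 3 members were higher in Cis (3.3%) and 3 were lower (3.27%). The median log2 difference of the members was 0.02 for Trans minus Saturated, 0.00 for Trans minus Cis and 0.02 for Cis minus Saturated, beside 0.00 for all genes in each comparison. The sign of the estimate was positive for 54, 43 and 53 of the 82 members, beside 9705, 9499 and 9669 of 18820 genes. For the 74 members over the signal limit it was positive for 50, 39 and 47, beside 4062, 4578 and 3610 of 8298 such genes. The medians of these 8298 genes were -0.003, 0.011 and -0.017. The counts of the 82 members against Saturated rested in part on Saturated replicate 5, and without it they were 44 for Trans and 45 for Cis. With a Tukey test after analysis of variance, which the study's methods name in general and not for the arrays, and with no adjustment over probe sets, 2 of 82 members passed for Trans against Saturated (3.32% of probe sets), 5 for Trans against Cis (2.66%) and 2 for Cis against Saturated (2.84%), and after adjustment 0 passed in each. In no comparison was a member free of overlap between the diets.

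**Figure D1:**
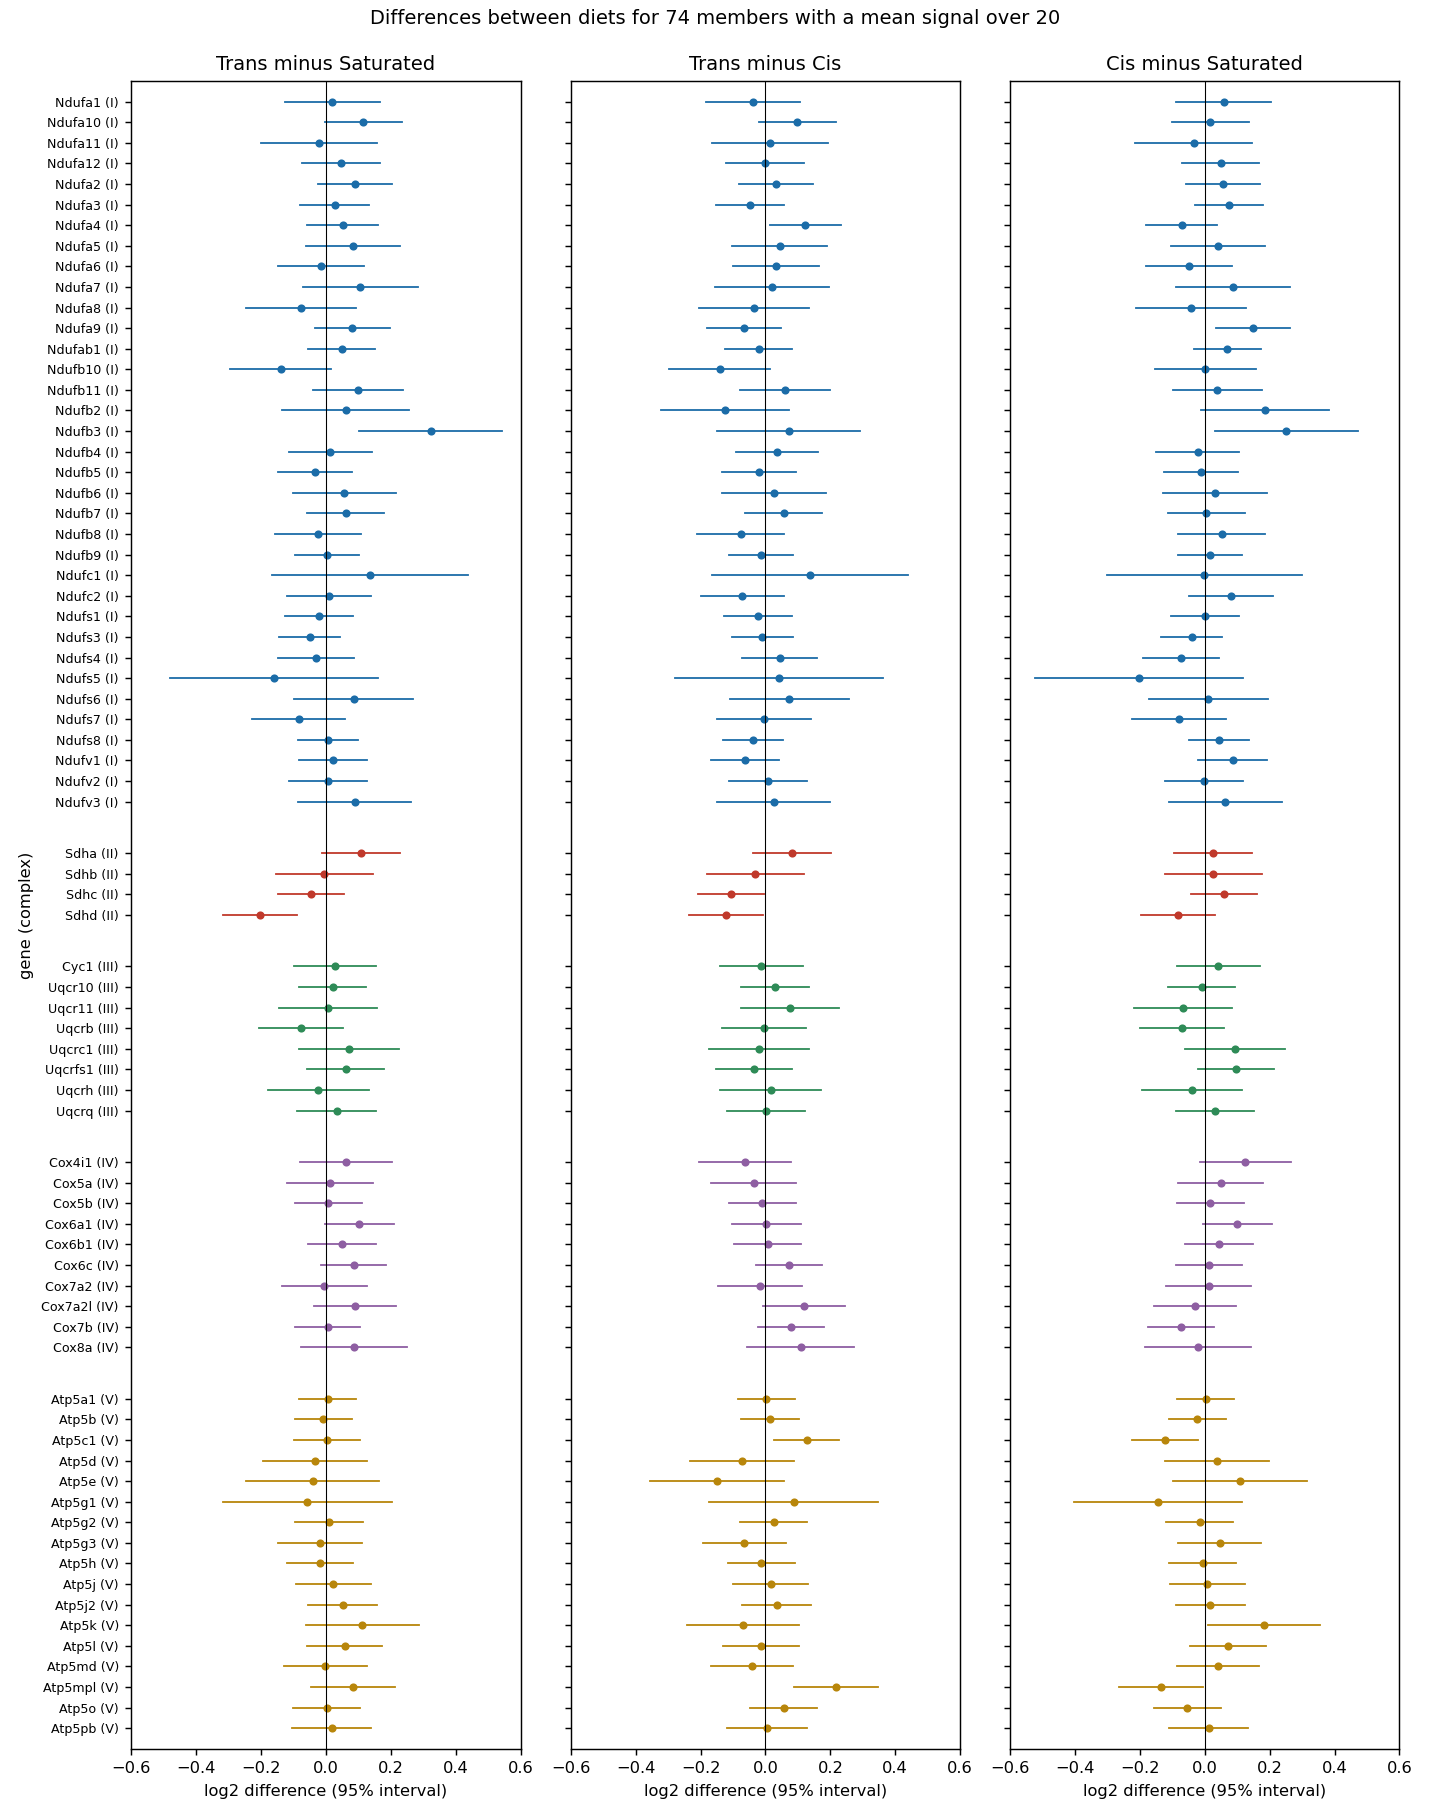
Log2 difference between diets (x axis) with its 95% interval from limma, for the 74 members with a mean signal over 20 (y axis, coloured by complex). In each comparison 65 of the 74 intervals lie within 1.2-fold, and the widest for Trans minus Saturated are those of Ndufs5, Ndufc1 and Atp5g1.

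The score of a complex in a liver is the mean over its genes of the log2 value minus the gene mean over the 24 livers. Its SDs within diets were as large as or larger than the gaps between diet means, except in complex IV. There the gap between Trans and Saturated was a little larger than either SD. These SDs are of single livers, and no gap was tested. The Saturated mean of complex IV includes the lowest liver of that score, replicate 5 at -0.10, while the Saturated median was -0.02. The gap was not recomputed without this liver. For complex I (35 genes over the signal limit) the score was 0.01 ± 0.03 in Trans, 0.01 ± 0.03 in Cis and -0.02 ± 0.07 in Saturated (mean ± SD, n = 8). For complex IV (10 genes) it was 0.03 ± 0.04, -0.00 ± 0.05 and -0.02 ± 0.04. Of these 10 genes, which share the same livers, 9 were above 0 and 1 below for Trans minus Saturated (median 0.06). Only complex II, with its 4 genes, had its lowest mean in Trans, at -0.03 ± 0.05, beside 0.02 ± 0.05 in Cis and 0.01 ± 0.06 in Saturated. Complexes III and V had means between -0.01 and 0.01 in all diets. The liver furthest below the rest was Saturated replicate 5, at -0.15 for complex I, -0.09 for III, -0.10 for IV and -0.11 for V. It held the lowest of the 24 values for 15 of the 74 members and the highest for 0, and 55 of the 74 lay below their own mean. Its median correlation with the other arrays was 0.982, within the range of the other livers, and it was not the lowest liver in complex II.

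**Figure D2:**
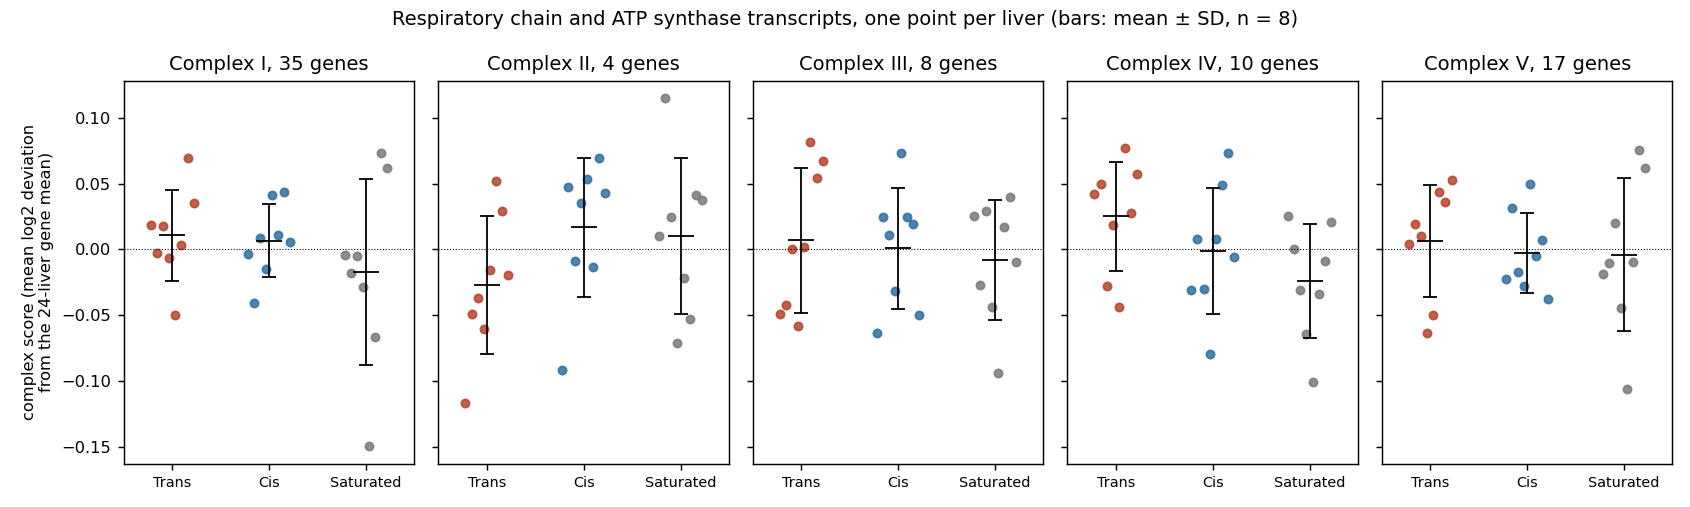
Complex score (y axis, mean log2 deviation from the gene mean over 24 livers) of each liver by diet, with mean ± SD (n = 8). The diet means lie between -0.03 and 0.03, and the lowest point in complexes I, III, IV and V is Saturated replicate 5.

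Complex II oxidizes succinate to fumarate and is the enzyme shared by the chain and the TCA cycle. It has a flavoprotein (Sdha), an iron-sulfur protein (Sdhb) and a pair of membrane anchors (Sdhc and Sdhd). Both anchors had negative estimates for Trans against Saturated and against Cis. Sdhd ranged from 8.86 to 9.17 in Trans, 8.99 to 9.25 (median 9.12) in Cis and 9.08 to 9.36 (9.19) in Saturated livers. All 8 Trans livers lay below the Saturated mean, although the ranges overlapped. Its log2 difference was -0.20 for Trans minus Saturated (SE 0.06, 95% interval -0.32 to -0.09, adjusted p = 0.336) and -0.12 for Trans minus Cis (adjusted p = 0.802, limma). The Trans against Saturated estimate kept its sign under every alternative run, from -0.23 to -0.18, and without one liver at a time or with other settings no adjusted p went under 0.157. Sdhc ranged from 8.97 to 9.23 in Trans, 9.17 to 9.32 in Cis and 9.05 to 9.32 in Saturated livers (medians 9.11, 9.23 and 9.18). All 8 Trans livers lay below the Cis mean, and Trans minus Cis was -0.11 (SE 0.05, adjusted p = 0.802). Sdha went the other way and had medians of 10.08, 9.99 and 9.99 in Trans, Cis and Saturated, with a difference of 0.11 for Trans minus Saturated (interval -0.01 to 0.23, adjusted p = 0.722). Sdhb differed by -0.01 (interval -0.16 to 0.14) in the same comparison and by -0.03 for Trans minus Cis, so that 3 of the 4 members had negative estimates for Trans in each. The difference between the subunits was not tested.

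**Figure D3:**
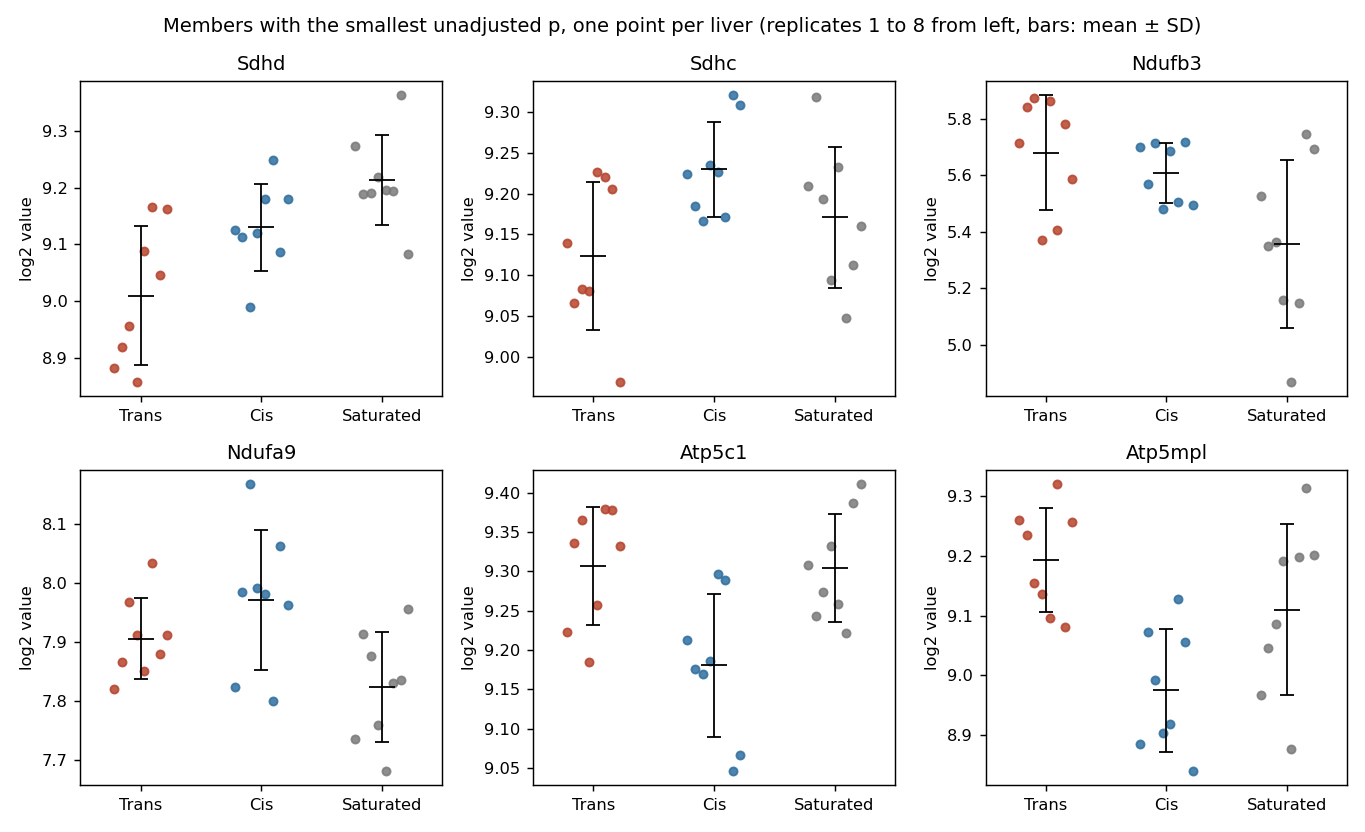
Log2 value (y axis) of 6 members with small unadjusted p by diet, one point per liver with replicates 1 to 8 from left, and mean ± SD (n = 8). Sdhd is lowest in Trans, Ndufb3 lowest in Saturated, and Atp5c1 and Atp5mpl lowest in Cis, with overlap between the diets in every panel.

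Complex I takes electrons from NADH through a flavin and a chain of iron-sulfur clusters. Its 6 measured core subunits were Ndufs1, Ndufs3, Ndufs7, Ndufs8, Ndufv1 and Ndufv2, which except for Ndufs3 carry these groups. Their differences lay between -0.08 and 0.09 in all 3 comparisons, none had an unadjusted p under 0.05, and the 95% interval was within 1.2-fold for 6 of 6 in each. The other 30 are supernumerary subunits by name, which stabilize the complex, with Ndufab1 also the acyl carrier protein of mitochondria and Ndufa4 now assigned to complex IV. For Trans minus Saturated their median difference was 0.05, with 22 of 30 above 0, and for the core it was -0.01, with 3 of 6 above 0.

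Ndufb3 gave the smallest p in complex I. It ranged from 5.37 to 5.87 (median 5.75) in Trans, 5.48 to 5.72 (5.63) in Cis and 4.87 to 5.74 (5.36) in Saturated livers. All 8 Trans and all 8 Cis livers lay above the Saturated mean, while the upper Saturated livers reached into both ranges. The log2 difference was 0.32 for Trans minus Saturated (SE 0.11, interval 0.10 to 0.54, adjusted p = 0.491) and 0.25 for Cis minus Saturated (adjusted p = 0.705). The lowest value was that of Saturated replicate 5, and without this liver the differences were 0.25 and 0.18. Ndufa9, which is needed for the stability of the complex at its junction of arms, had medians of 7.90 in Trans, 7.98 in Cis and 7.83 in Saturated livers. Its Cis values, 7.80 to 8.17, overlapped the Saturated values, 7.68 to 7.96, and Cis minus Saturated was 0.15 (SE 0.06, adjusted p = 0.651). Ndufa4 lay between 10.24 and 10.46 in Trans, 10.12 and 10.38 in Cis, and 10.13 and 10.45 in Saturated livers, with 0.12 for Trans minus Cis (SE 0.05, adjusted p = 0.802). Ndufa10 and Ndufb10, both supernumerary, were at 0.12 and -0.14 for Trans minus Saturated (adjusted p = 0.695 and 0.717) and at 0.10 and -0.14 for Trans minus Cis. Ndufb9, whose probe set had the highest mean in complex I, lay between 10.73 and 11.05 in all 24 livers, and its 3 differences were between -0.01 and 0.02.

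Complex III has cytochrome c1 (Cyc1), the Rieske iron-sulfur protein (Uqcrfs1), core proteins (Uqcrc1 here) and small subunits. None of its 8 members had an unadjusted p under 0.05 in any comparison, and the interval was within 1.2-fold for 8 of 8 in each. Uqcrfs1 had the smallest p, with medians of 8.21 in Trans, 8.21 in Cis and 8.17 in Saturated livers and a Cis minus Saturated difference of 0.10 (interval -0.02 to 0.21, adjusted p = 0.837), which was 0.06 without Cis replicate 7 and 0.04 without Cis replicates 7 and 8. Uqcrc1 differed by 0.09 in the same comparison (interval -0.06 to 0.25), and by 0.16 without these 2 livers. Uqcrb, which lay between 9.71 and 10.17 over all livers, differed by -0.08 for Trans minus Saturated (interval -0.21 to 0.05). Uqcr11 differed by 0.08 for Trans minus Cis (interval -0.08 to 0.23), and by 0.04 without them.

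Complex IV is built on mitochondrially encoded cores around which nuclear subunits sit, several with tissue isoforms. The isoforms of liver and most tissues were Cox4i1, Cox6a1, Cox6b1, Cox7a2, Cox7b and Cox8a, listed together with Ndufa4, and 7 of 7 had a mean signal over 20. Their partners of muscle, lung, testis or hypoxia, Cox4i2, Cox6a2, Cox6b2, Cox7a1, Cox7b2, Cox8b and Cox8c, with Ndufa4l2, had it in 0 of 8. The 10 striated muscle markers had it in 0 of 10, with a mean log2 value of 2.17 to 2.65 per liver. No isoform was called between any diets. Among the liver isoforms, Cox6a1 came nearest to the limit for Trans minus Saturated, at 0.10 (SE 0.05, interval -0.00 to 0.21, adjusted p = 0.698), with medians of 9.91 in Trans, 9.92 in Cis and 9.82 in Saturated livers. All 8 Trans livers lay above the Saturated mean. The second probe set of Cox6a1 had a much lower mean log2 value, 5.36 against 9.92 for the first. It gave 0.22 (adjusted p = 0.63), and the probe sets correlated at r = 0.48 over the 24 livers. Cox4i1 differed by 0.12 for Cis minus Saturated (adjusted p = 0.808), by 0.06 without Cis replicate 7 and by 0.02 without Cis replicates 7 and 8. Its SD was 0.22 in Cis, 0.03 in Trans and 0.04 in Saturated livers. Cox6c, which has no isoform pair, differed by 0.09 for Trans minus Saturated (adjusted p = 0.745), and Cox7a2l, an isoform-like protein that helps to join complexes III and IV, by 0.12 for Trans minus Cis (adjusted p = 0.806). Of the low isoforms, Cox7a1 of heart and muscle lay between 3.73 and 4.88 and differed by -0.29 for Cis minus Saturated (SE 0.13, adjusted p = 0.742). Cox8b lay between 1.71 and 2.49 and differed by 0.24 for Trans minus Cis (adjusted p = 0.784).

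Complex V has a catalytic head (Atp5a1, Atp5b) on a central stalk (Atp5c1, Atp5d, Atp5e), a ring of c subunits encoded by Atp5g1, Atp5g2 and Atp5g3, a peripheral stalk and small membrane subunits. The head was even between livers. Atp5a1 and Atp5b had an SD within diets of 0.06, the smallest of the 74 members, and only 0.301% and 0.374% of genes over the signal limit had a smaller one. Atp5b ranged from 11.01 to 11.21 in Trans, 10.96 to 11.19 in Cis and 11.05 to 11.17 in Saturated livers, with differences between -0.02 and 0.01. Atp5c1, the gamma subunit that turns inside the head, ranged from 9.18 to 9.38 in Trans, 9.05 to 9.30 in Cis and 9.22 to 9.41 in Saturated livers (medians 9.33, 9.18 and 9.29). All 8 Trans livers lay above the Cis mean. The difference was 0.13 for Trans minus Cis (SE 0.05, interval 0.03 to 0.23, adjusted p = 0.764) and -0.12 for Cis minus Saturated (adjusted p = 0.681). These comparisons share the Cis livers, and without Cis replicates 7 and 8 the differences were 0.09 and -0.08.

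Atp5mpl, a small proteolipid of the membrane part, followed the same order. It ranged from 9.08 to 9.32 (median 9.19) in Trans, 8.84 to 9.13 (8.96) in Cis and 8.88 to 9.31 (9.14) in Saturated livers. All 8 Trans livers lay above the Cis mean, and the ranges met between 9.08 and 9.13. Trans minus Cis was 0.22 (SE 0.06, interval 0.09 to 0.35, adjusted p = 0.598), and Cis minus Saturated was -0.14 (adjusted p = 0.751). Atp5k, subunit e of the dimer interface, differed by 0.18 for Cis minus Saturated (SE 0.08, adjusted p = 0.752) with Cis livers from 6.09 to 6.67 and Saturated livers from 5.95 to 6.27. Cis replicates 7 and 8, at 6.59 and 6.67, were above all other livers, and without both the difference was 0.07 (adjusted p = 0.918). The 4 members of the peripheral stalk, which holds the head still, had differences between -0.05 and 0.06 over the comparisons.

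Of the 82 members, 23 have more than one probe set, 32 further ones in all, and 0 of these were called in any comparison. The further probe set differed from the one used by a median of 0.02 in log2 difference and by at most 0.29. Its correlation with the one used ran from -0.30 for Atp5o to 0.99 for Atp5g1. Several of these genes are known to have processed pseudogenes, and whether probes read such copies was not tested.

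In a few members single livers stood far from the rest, and some livers recurred. Atp5g1 was 9.55 in Cis replicate 7, 9.93 in Cis replicate 8, 10.03 in Saturated replicate 5 and 10.11 in Trans replicate 5, and between 10.31 and 10.65 in the other 20. Ndufc1, a small subunit of complex I, was 7.62, 7.45, 7.26 and 7.75 in these 4 livers and between 7.99 and 8.59 in the others. Cox4i1 and Cox5a went the other way in the Cis pair, at 9.44 and 9.17 for Cox4i1 and 8.20 and 8.00 for Cox5a, while the highest of the other 22 livers were 8.99 and 7.97. Ndufs5 was low in other livers, at 7.37 and 7.09 in Trans replicates 2 and 6 and 7.28 in both Cis replicates 2 and 4. It lay between 7.55 and 8.22 in the rest. Cis replicate 7 held the highest of the 24 values for 21 of the 74 members and the lowest for 9. The arrays of Cis replicates 7 and 8 were also those with low correlation to the others, and the part of array quality in these values was not tested.

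**Figure D4:**
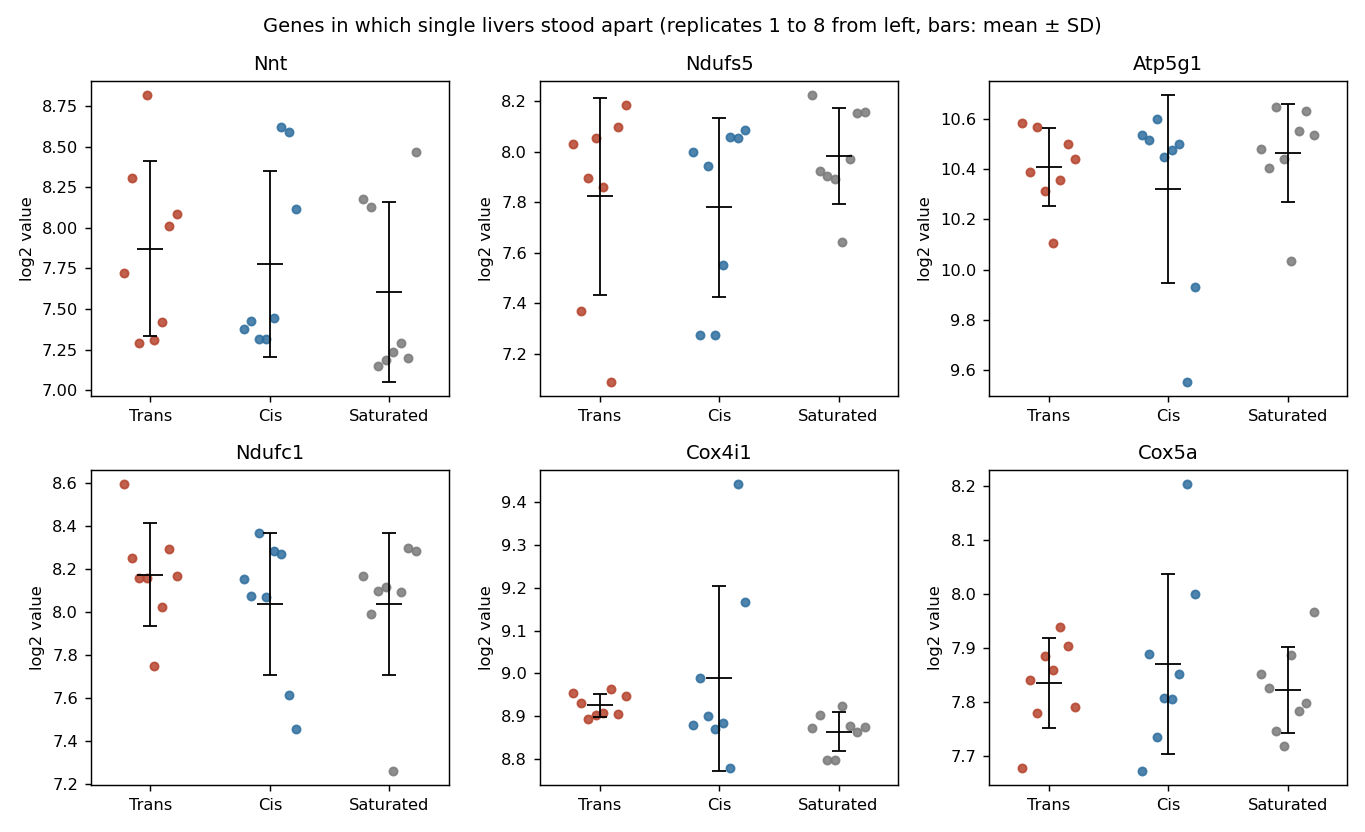
Log2 value (y axis) by diet of 5 members and of Nnt, one point per liver with replicates 1 to 8 from left, and mean ± SD (n = 8). Cis replicates 7 and 8 are the lowest Cis points for Atp5g1 and Ndufc1 and the highest for Cox4i1 and Cox5a, and Nnt splits into livers up to 7.44 and from 8.01 with a single liver at 7.72.

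Across the 24 livers, with diet means subtracted, the 2701 pairs of the 74 members had a median Pearson r of 0.11, beside 0.02 for all pairs of the 8298 genes over the signal limit. The median was 0.09 within complex I, 0.04 within II, -0.01 within III, 0.16 within IV and 0.12 within V, which are all weak. Without Cis replicates 7 and 8 it was 0.12 within complex I, 0.07 within II, 0.13 within III, 0.13 within IV and 0.16 within V, beside 0.13 for all members and 0.00 for all genes. All points share the same arrays, and no test was made. An r of at least 0.7 was seen in 1.04% of pairs of members and 0.316% of all pairs, and an r of -0.7 or lower in 0.148% and 0.112%. The pairs highest among the 2701 were Atp5g1 with Ndufc1 (r = 0.84, Spearman rho 0.72) and Atp5l with Atp5md (r = 0.84, rho 0.83), which is a pair of small membrane subunits. Without the 2 livers farthest from the median these were 0.85 and 0.80. Atp5a1, a head subunit of complex V, and Sdha, the flavoprotein of complex II, were at r = 0.79 (rho 0.81), and 0.76 without such livers. The lowest pair was Atp5g1 with Cox4i1 (r = -0.81, rho -0.65), which was -0.62 without the 2 farthest livers and -0.50 without Cis replicates 7 and 8. Cox4i1 and Cox5a, neighbours in complex IV, went from r = 0.77 to 0.46 without Cis replicates 7 and 8.

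**Figure D5:**
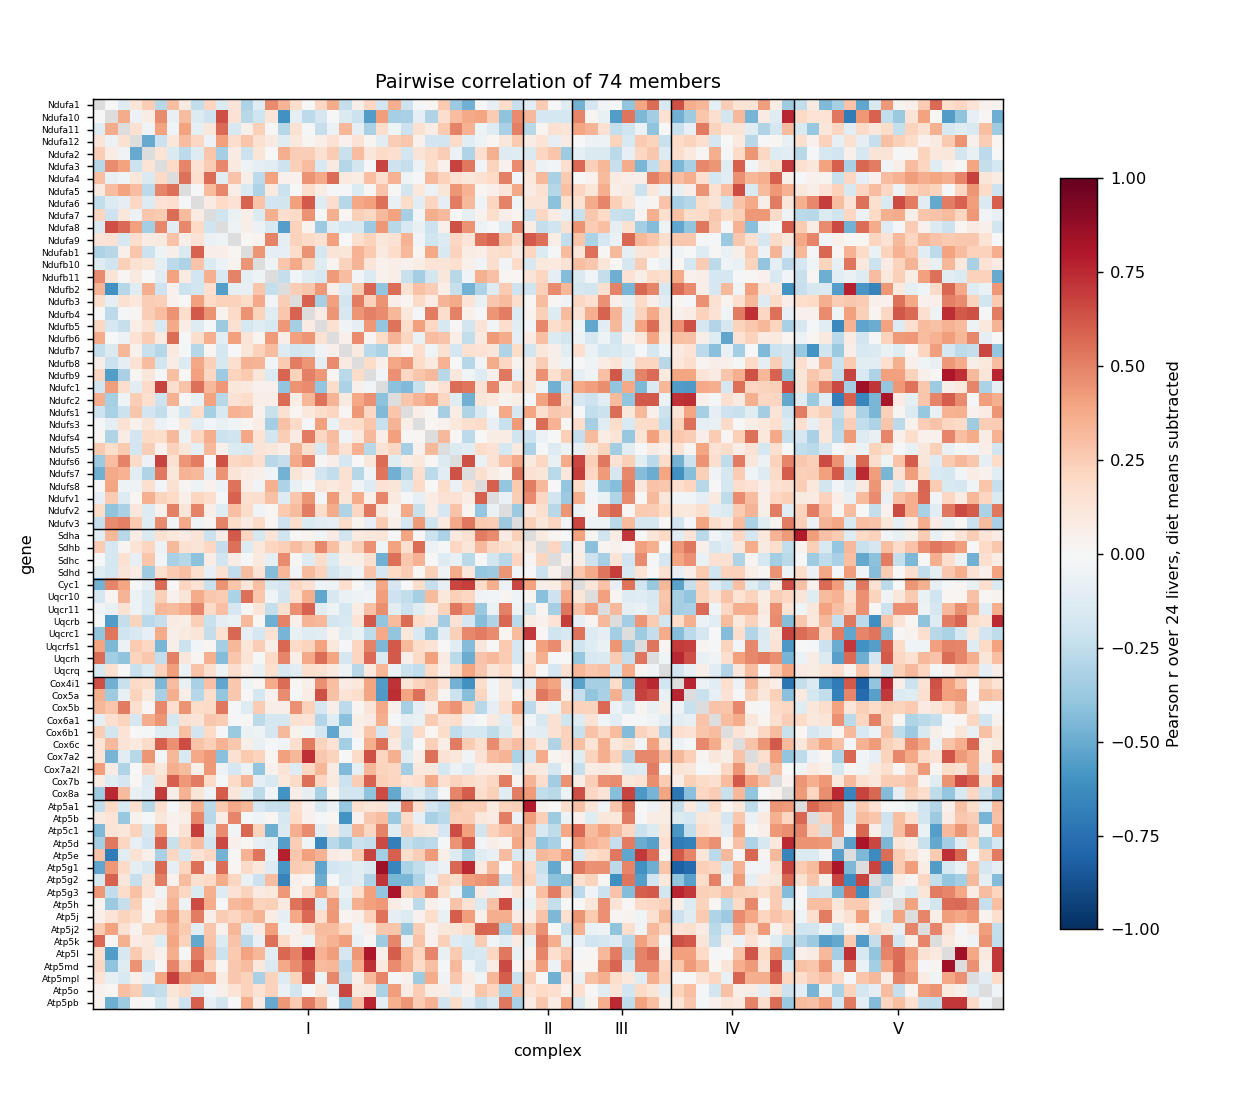
Pearson r (colour) over 24 livers with diet means subtracted, for all pairs of the 74 members with a mean signal over 20, ordered by complex on both axes. Warm cells (r above 0) outnumber cool ones, with a median of 0.11, beside 0.09 within complex I, 0.16 within complex IV and 0.12 within complex V.

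Of the genes around the chain, 0 were called in every list, while 3, 1 and 0 of all probe sets were called in the 3 comparisons. Of 42 assembly factors, an unadjusted p under 0.05 was reached by 3 higher and 0 lower for Trans minus Saturated, 0 and 3 for Trans minus Cis, and 4 and 0 for Cis minus Saturated, with medians of 0.02, -0.02 and 0.04. In percent of the list these are 7.14% higher for Trans minus Saturated (3.79% of all probe sets), 7.14% lower for Trans minus Cis (3.12%) and 9.52% higher for Cis minus Saturated (3.3%). Acad9, needed to assemble complex I, gave 0.18 for Trans minus Saturated (adjusted p = 0.499), and Sco1, a copper carrier for complex IV, gave -0.25 for Trans minus Cis (adjusted p = 0.755). Among 12 genes of coenzyme Q synthesis, Coq3, a methyltransferase, gave 0.24 for Trans minus Saturated (SE 0.07, adjusted p = 0.349) and 0.18 for Cis minus Saturated (adjusted p = 0.642). Cytochrome c (Cycs) lay between 9.73 and 10.32, with differences between -0.09 and 0.08, and the testis form Cyct was at a mean log2 value of 1.17. None of the 9 genes of mitochondrial DNA expression had an unadjusted p under 0.05. Of 13 genes of the TCA cycle, 1 was higher and 1 lower at that threshold for Trans minus Saturated and for Trans minus Cis, which is 7.69% in each direction, and 0 for Cis minus Saturated. Idh3a gave -0.26 for Trans minus Saturated (adjusted p = 0.469) and Idh2 gave 0.23 (adjusted p = 0.621). Of 9 uncoupling proteins and carriers, none had an unadjusted p under 0.05. Gpd2, the glycerol-3-phosphate dehydrogenase that feeds coenzyme Q, gave 0.29 for Cis minus Saturated (SE 0.10, adjusted p = 0.639).

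Of 15 regulators, an unadjusted p under 0.05 was reached by 2 higher and 2 lower for Trans minus Saturated, 0 for Trans minus Cis, and 1 higher and 3 lower for Cis minus Saturated. For Trans minus Saturated this is 13.3% in each direction, beside 3.79% of all probe sets higher and 3.54% lower. For Cis minus Saturated it is 6.67% higher and 20% lower, beside 3.3% and 3.27%. With 15 genes, each gene counts for 6.67%. Among them Ppargc1a, a coactivator of mitochondrial biogenesis and of the fasting response, had the smallest p. It ranged from 5.68 to 6.50 (median 6.17) in Trans, 5.58 to 6.34 (5.91) in Cis and 5.97 to 6.70 (6.48) in Saturated livers. Cis minus Saturated was -0.51 (SE 0.14, interval -0.79 to -0.23, adjusted p = 0.502) and Trans minus Saturated was -0.33 (adjusted p = 0.62). The related coactivator Ppargc1b gave 0.45 for Trans minus Saturated (SE 0.16, adjusted p = 0.513). The nuclear receptor Esrrg gave 0.37 for Cis minus Saturated (adjusted p = 0.67).

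Some markers of other cell types differed in their estimates between diets. The 5 smooth muscle markers were all above 0 for Trans minus Saturated (median 0.39) and for Trans minus Cis (0.43). Only 1 of the 5 had a mean signal over 20. The mean log2 value of the 5 ran from 3.24 to 4.73 (median 3.53) in Trans livers. It ran from 3.04 to 3.68 (3.31) in Cis and 3.18 to 3.64 (3.34) in Saturated livers. The upper end in Trans was far from the median, as for Acta2, with a Trans median of 4.72 and a highest value of 6.84. The 6 adipocyte markers were all above 0 against Saturated, with medians of 0.14 for Trans and 0.14 for Cis, led by the lipid droplet gene Cidec. Their mean ran from 2.73 to 3.55 in Trans, 2.72 to 3.08 in Cis and 2.22 to 2.86 in Saturated livers. Only 1 of the 6, Cidec, had a mean signal over 20, and whether its RNA came from adipocytes was not tested. The 5 Kupffer cell markers had medians of -0.26 and -0.21 against Saturated. The lists for endothelial, stellate, bile duct, lymphoid, neutrophil and germ cells had medians between -0.18 and 0.18. None of the markers was called, and their part in the values of the members was not tested.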

How the data were processed

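Liver RNA of 24 mice was measured on Affymetrix Mouse Gene 1.1 ST arrays, 1 per mouse. The authors normalized the scans by RMA, which corrects background, equalizes the distributions of the arrays by quantiles and sums up the probes of a set. The deposited values are log2 signals for each probe set in each liver. Software versions are not given in the sources used here. The methods describe probe sets defined by gene identifier, whereas the deposited identifiers, 35556 in number, are those of the array design. Quantile normalization removes any shift shared by all genes, so differences are relative to the other genes of a liver. Precision is limited by the number of arrays, and p-values measure the spread between the mice of a diet.

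Of the probe sets, 21218 are assigned to 1 gene, 1881 to several and 12457 to none. Each gene is given by its probe set of highest mean. Looking up the members by gene identifier in RefSeq changed 0 symbols. In R 4.3.3, limma 3.58.1 (lmFit, eBayes without trend, not robust) was fitted to all livers and all probe sets with diet as factor and 21 residual degrees of freedom. Tests are two-sided, Benjamini-Hochberg adjustment covered every probe set of each comparison separately, with calls at adjusted values under 0.05. Intervals are at the 95% level. The fit was tested on simulated data. No column of the table was left out.

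Genes named are, per complex, the member of highest mean and the 2 of smallest p in each comparison, the isoform pairs, and up to 2 genes of smallest p per comparison in the other lists. Ndufs5, Ndufc1, Atp5g1, Cox5a, the pairs with extreme correlation and Nnt were named after their values were seen. The members, lists, motifs and tests were chosen with earlier results of these data known. The lists are assembly factors, cytochrome c, coenzyme Q synthesis, mitochondrial DNA expression, regulators, TCA cycle, electron entry, uncoupling proteins and carriers, isoform pairs and cell type markers. Alternatives were a signal filter, trend and robust estimation, 2 diets only, quantile normalization once more, array weights, centring on medians, the replicate number as block, a Tukey test, other probe sets and leaving out livers.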

Additional observations from a re-analysis of the deposited data

Results flagged for a closer look

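In 4 cases, 1 liver stood apart from the other 7 of its diet by Dixon's ratio at the 95% level, out of 117 groups of 8 livers examined for the named members and the complex scores. Chance marks about 1 in 20 such groups. Atp5k was 6.52 in Trans replicate 4, with the next liver at 6.26, and Ndufa10 was 9.68 in the same liver, with the next at 9.51. Trans replicate 4 is the array with the lowest median correlation to the others. Cox6c was 9.996 in Saturated replicate 5, with the next liver at 10.17, in the liver that was lowest in 4 of the 5 complex scores. Uqcrfs1 was 8.53 in Cis replicate 7, with the next liver at 8.31.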

How the results depend on the processing

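The count of members called was 0 in each comparison under every alternative with adjustment, including each of the 24 livers left out in turn (lowest 0, highest 0). With a Tukey test and no adjustment over probe sets, it was 2 for Trans against Saturated, 5 for Trans against Cis and 2 for Cis against Saturated. Leaving out 1 liver moved the median difference of the members between 0.009 and 0.030 for Trans minus Saturated, -0.008 and 0.007 for Trans minus Cis and 0.007 and 0.029 for Cis minus Saturated. The median for Trans minus Cis was also below 0 after median centring (-0.005) and after a second quantile normalization (-0.001), so no direction is given for it. For 14 differences of single members with an unadjusted p under 0.05, 474 of 474 refits with adjusted p kept the direction and called none. The 14 were picked from these same data, and several refits keep the same difference of diet means. This count is therefore a description and not a test of the differences. Without Cis replicates 7 and 8, an alternative chosen after seeing the data, 0 members were called in each comparison, and the median r over pairs of members went from 0.105 to 0.129. The livers share replicate numbers across diets, and the deviations of same-numbered livers were correlated only between -0.068 and 0.088. They were therefore not treated as pairs. Such correlations cannot show whether the numbers stand for a weakly shared factor. With the replicate number as a block, 0 members were called in each comparison, and the medians were 0.015, 0.003 and 0.017. The interval of the difference lay within 1.2-fold in either direction for 68 of 82 members in each comparison. Such a member may still differ by less than this without being called. For the remaining members the interval reached beyond 1.2-fold, so a difference of that size was not excluded. Probe sets with a signal near background, such as those of the muscle isoforms, understate changes.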

Other observations

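Nnt, the transhydrogenase that uses the proton gradient to make NADPH from NADH, was singled out after its values were seen. High and low values occurred on all 3 diets. In 13 livers it lay between 7.15 and 7.44, in 1 (Trans replicate 1) it was 7.72, and in 10 it lay between 8.01 and 8.82. The higher values were found in 4 Trans livers (8.01, 8.09, 8.31 and 8.82), 3 Cis livers (8.11, 8.59 and 8.62) and 3 Saturated livers (8.13, 8.18 and 8.47). Its SD within diets was 0.56, larger than that of 98.5% of the genes with a mean signal over 20. The C57BL/6J strain is known to carry a deletion in Nnt that other C57BL/6 substrains lack. The labels give C57BL/6J for all 24 mice and the methods a C57Bl/6 background, and the genotype was not tested. A second probe set of Nnt had a mean log2 value of 3.57.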
